A study of Mus musculus with 4 samples.

Results

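A set of 8 genes of the MHC class II pathway, H2-Aa, H2-Ab1, H2-Eb1, Cd74, H2-DMa, H2-DMb1, H2-DMb2 and Ciita, was followed in the tumor cells and leukocytes of mouse ascites. The 8 genes were taken by symbol from the gene lists of the libraries, and each of the 8 was present in all 4 lists, which together hold 29835 genes. Their levels were read in cells gated by counts of unique molecular identifiers (UMIs, each standing for 1 captured transcript). Tumor cells carried at least 5 UMIs of the keratins Krt7, Krt8, Krt18 and Krt19 and of Wt1 together, and no UMI of the leukocyte gene Ptprc. Myeloid cells carried at least 3 UMIs of Lyz2 and Csf1r and at most 2 of the keratins, conventional dendritic cells (cDC) at least 2 of Xcr1, Clec9a and Cd209a, and B cells at least 3 of Cd79a and Cd79b. None of the 8 genes was used to set a gate.

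ID8-Trp53-/- cells, a mouse ovarian cancer line without Trp53 that was also transduced with iRFP, had been injected into the peritoneum of immunocompetent female C57BL/6 mice (C57BL/6NCrl, 6 weeks old at injection) and left to engraft for 7 days. Mice then received injections repeatedly each week until about 3 mL of ascites had formed: DMSO with an IgG2a control antibody (control), BTYNB, a small-molecule inhibitor directed against the RNA-binding protein IGF2BP1, with the control antibody (BTYNB), DMSO with the anti-PD-1 antibody RMP1-14 (anti-PD-1), or BTYNB with anti-PD-1 (combination). Ascites cells of 6 mice per treatment were depleted of erythrocytes, frozen and pooled, so that each treatment is 1 library and the 4 libraries share the same cell line, host strain and Trp53 loss. The comparisons describe how class II transcript levels of tumor cells and leukocytes differed between the libraries of each treatment, alone and added to the other. Since no treatment had a replicate library, no test between treatments was possible: the intervals given in parentheses are 95% intervals for counting error only, they do not cover variation between mice, and a treatment cannot be told apart from its pool and library.

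MHC class II molecules are heterodimers of an alpha and a beta chain that present peptides from the endosomal route to CD4 T cells. H2-Aa and H2-Ab1 encode the chains of I-A, and H2-Eb1 encodes the beta chain of I-E, whose alpha gene H2-Ea is defective in C57BL/6 mice, so that H2-Eb1 transcript is made without a partner chain. Cd74, the invariant chain, escorts new class II molecules to the endosome, where H2-DM, a dimer of H2-DMa with H2-DMb1 or H2-DMb2, exchanges the remnant of the invariant chain for peptide. Ciita is the co-activator that joins the RFX, CREB and NF-Y factors at the X and Y boxes of these promoters. Dendritic cells, B cells and macrophages express the pathway constitutively or upon activation, whereas epithelial cells and tumor cells can acquire it under interferon-gamma.

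The deposited matrices held 46342 cells, of which 45178 passed the filters of at least 200 genes and at most 33% mitochondrial UMIs. Library totals ranged from 78603888 to 114600397 UMIs, and the median UMIs per cell were 9430.5 in control, 2562 with BTYNB, 6908 with anti-PD-1 and 9480.5 in the combination. Cells in the tumor gate numbered 7114 in control, 3606 with BTYNB, 10923 with anti-PD-1 and 4369 in the combination. Cells in the myeloid gate numbered 292 in control, 3134 with BTYNB, 384 with anti-PD-1 and 1258 in the combination, and those in the cDC gate 71 in control, 1047 with BTYNB, 85 with anti-PD-1 and 769 in the combination. The B gate was not specific in the libraries with few B cells: 22 of its 31 control cells and 33 of its 39 anti-PD-1 cells were also in the tumor gate, whose Cd79a level, in counts per 1000000 UMIs (CPM), was 12.2 in control, 29.98 with BTYNB, 23.5 with anti-PD-1 and 30.6 in the combination. B cell values therefore leave out cells of the tumor gate and are given for BTYNB and combination, with 3314 and 175 cells. In the tumor gate, 4 of 8 tumor markers (Lgals7, Upk1b, Msln and Muc16) were found in at least 10% of cells of every library, whereas Epcam stayed at or below 0.230 CPM and Wfdc2 at or below 0.0179 CPM. The gate did not use iRFP, so host cells with the same transcripts could not be told apart from the injected cells. All 7 myeloid markers were found in at least 10% of cells of the myeloid gate in each library, and at least 5 of 6 cDC markers in the cDC gate. The summed tumor markers within the myeloid gate were 611 CPM in control, 73.2 with BTYNB, 701 with anti-PD-1 and 610.0 in the combination. Within the cDC gate they were 844 CPM in control, 213 with BTYNB, 1016 with anti-PD-1 and 184 in the combination. Libraries shared at most 4 cell indices in any pair, and no shared index had the same profile.

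Class II transcripts were measured in every gate, at the highest levels in cDC and myeloid cells, at lower levels in B cells and at lower levels again in tumor cells. Levels are given as CPM of all UMIs of the gate in that library. The H2-Aa level of cDC was 4139 CPM in control, 8247 with BTYNB, 5915 with anti-PD-1 and 7675 in the combination. That of myeloid cells was 4110.4 CPM in control, 6623 with BTYNB, 6595 with anti-PD-1 and 6291 in the combination, and that of B cells 3300.2 CPM in BTYNB and 3092 in combination. Tumor cells had 795 CPM in control, 1040.3 with BTYNB, 1431 with anti-PD-1 and 1244 in the combination. In every library the tumor level of H2-Aa lay below the levels of the myeloid and cDC gates, and the intervals did not overlap. T cells, which in mice should lack class II, still showed 455 CPM of H2-Aa in the 1521 cells of BTYNB and 1989 in the 45 of combination. Leaving out T cells that were also in the cDC gate, a choice made after the data were seen, the levels were 261 CPM (1507 cells) and 634 CPM (32 cells, 534 to 747). In combination the T cell level thus lay above or below the tumor level depending on these 13 cells, and in BTYNB it was below the tumor level either way. Control and anti-PD-1 held only 3 and 4 T cells.

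The remaining class II chains and Cd74 followed the same order of gates. H2-Ab1 in tumor cells was at 494 CPM in control, 588 with BTYNB, 755 with anti-PD-1 and 762 in the combination. H2-Eb1 was at 546 CPM in control, 709.9 with BTYNB, 979 with anti-PD-1 and 889 in the combination. The control library was the lowest for both, as for H2-Aa. The tumor level of Cd74, the invariant chain, was 679 CPM in control, 886 with BTYNB, 806 with anti-PD-1 and 842 in the combination, again lowest in control, but with the other libraries close to each other. In cDC, Cd74 was at 6438 CPM in control, 12513 with BTYNB, 5583 with anti-PD-1 and 9601 in the combination, so that the library order differed from that of tumor cells. In myeloid cells it ranged from 7159.6 to 10464 CPM, and in B cells it was at 6622 in BTYNB and 4320.3 in combination.

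The peptide exchange factors and the co-activator gave the fewest UMIs. The tumor level of H2-DMa was 53.3 CPM in control, 50.1 with BTYNB, 70.1 with anti-PD-1 and 64.5 in the combination, and its level was 339 to 512 CPM in myeloid cells and 346 to 615 CPM in cDC. H2-DMb1 had tumor levels of 68.5 CPM in control, 61.6 with BTYNB, 68.4 with anti-PD-1 and 73.96 in the combination, the narrowest range of the 8 members in that gate. H2-DMb2 had the widest, at 6.07 CPM in control, 12.1 with BTYNB, 37.8 with anti-PD-1 and 16.2 in the combination, so that anti-PD-1 exceeded control 6.23-fold. T cells outside the cDC gate had 18.1 CPM of H2-DMb2 in BTYNB (14.1 to 22.9) and 53.2 in combination (27.5 to 92.9), above the tumor cells of the same library in both. The anti-PD-1 tumor level was above the T cell level of BTYNB and within the interval of that of combination, and its own library had too few T cells for a comparison. The H2-DMb2 level of B cells, 640.0 CPM in BTYNB and 364 in combination, was above that of myeloid cells, 64.4 to 152 CPM. Ciita in tumor cells was at 15.9 CPM in control, 17.8 with BTYNB, 22.4 with anti-PD-1 and 24.01 in the combination, against 9.58 CPM in these T cells of BTYNB and 26.6 (9.76 to 57.9) in those of combination. Its level was 118 to 177 CPM in myeloid cells, 121 to 289 in cDC, and 186 and 109 in B cells of BTYNB and combination.

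**Figure D1:**
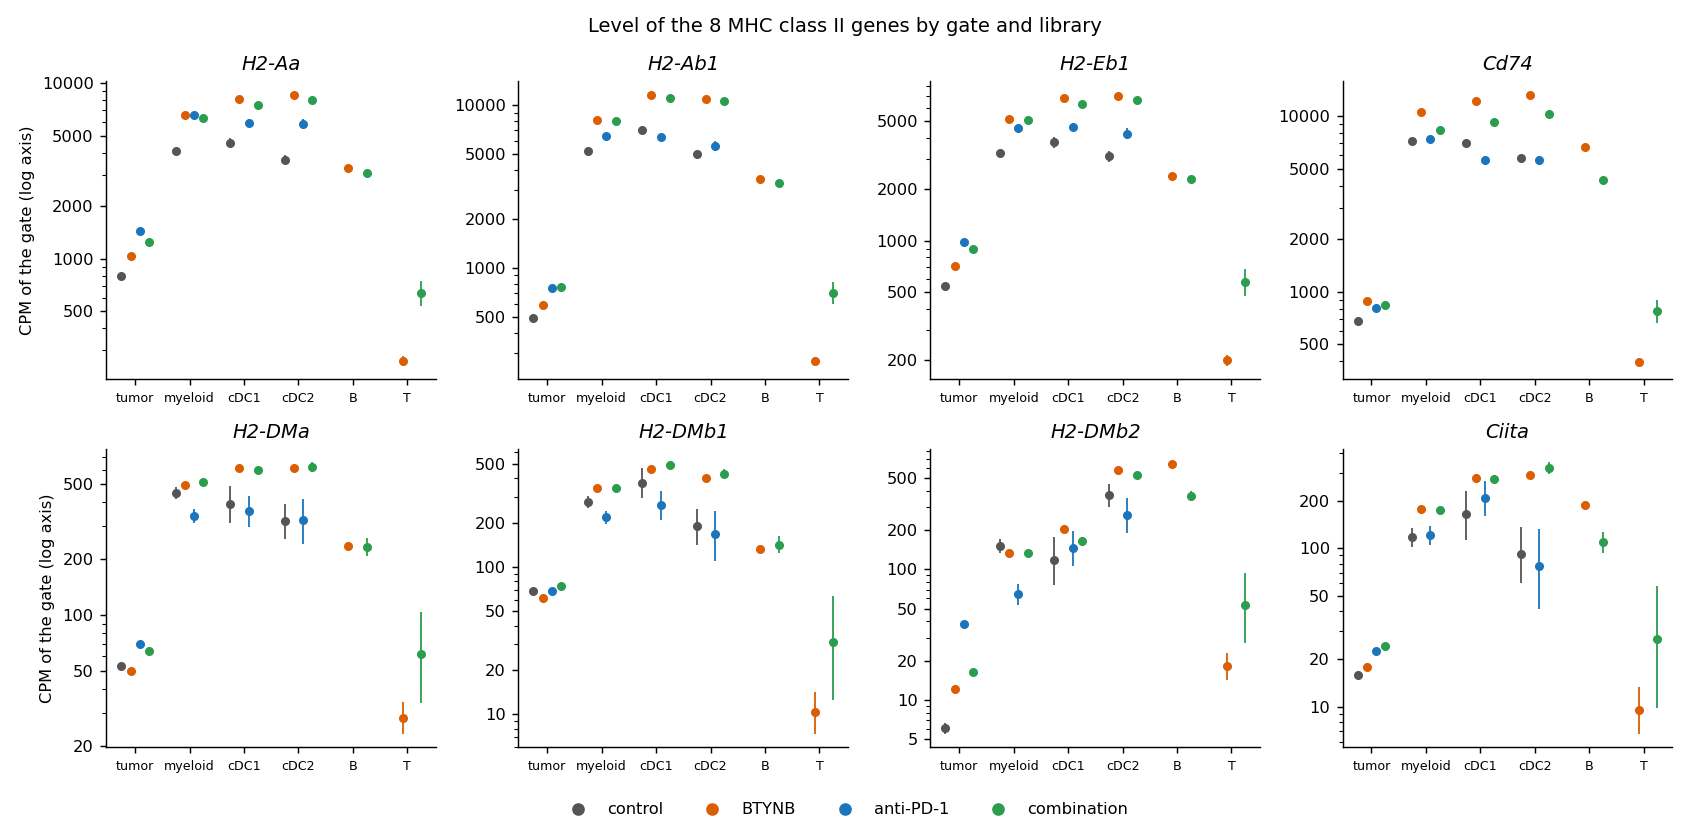
Level of each of the 8 class II genes (CPM of the gate, log axis) by gate and library, drawn where a gate held at least 30 cells; points are libraries and bars are 95% Poisson intervals for counting error. B cells are without tumor-gate cells and T cells without cDC-gate cells. Tumor cells lie below myeloid cells and cDC for every gene, and their H2-DMb2 level spans 6.07 to 37.8 CPM.

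The cDC gate was further split into cells with Xcr1 and Clec9a (cDC1) and cells with Cd209a (cDC2). H2-Aa was at 8088 CPM in cDC1 and 8508 in cDC2 of BTYNB, and at 7533 and 7996 in combination. H2-DMb2 differed more, at 205 CPM in cDC1 (192 to 218) and 575 in cDC2 (550.0 to 601) of BTYNB, and at 164 and 524 in combination. The control and anti-PD-1 libraries, with 31 to 54 cells in each kind, gave the same order, at 119 against 370.2 CPM in control and 146 against 261 CPM in anti-PD-1.

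To compare how many cells carried class II transcript, each cell was thinned at random to 1000 UMIs, leaving out the 19 BTYNB tumor cells below that depth. Tumor cells with a UMI of H2-Aa at this depth made up 47.8% in control, 55.00% with BTYNB, 59.03% with anti-PD-1 and 63.4% in the combination. Before thinning the shares were 91.1% in control, 91.5% with BTYNB, 84.5% with anti-PD-1 and 97.9% in the combination, at median depths of 9783 UMIs in control, 15221 with BTYNB, 7160 with anti-PD-1 and 11503 in the combination. The thinned share of H2-Aa was lowest in control, and before thinning anti-PD-1 was the lowest. A UMI of any of the 3 classical chains H2-Aa, H2-Ab1 and H2-Eb1 was present in thinned tumor cells at 69.2% in control, 75.1% with BTYNB, 71.9% with anti-PD-1 and 84.2% in the combination. At 2000 UMIs the share with any of the 3 chains was 82.7% in control and 79.3% with anti-PD-1, so which of these libraries was the lower depended on the depth. T cells (at least 3 UMIs of Cd3d, Cd3e and Cd3g, and at most 2 each of the keratins, of Lyz2 and Csf1r, and of Cd79a and Cd79b) served as the background and were numerous only in BTYNB, where 12.2% (10.6 to 13.9%) of 1504 thinned cells had a UMI of H2-Aa and 23.5% (21.3 to 25.7%) a UMI of the 3 chains. These T cells had a median of 2221 UMIs before thinning, and 41.6% of them had a UMI of the 3 chains at that depth. Tumor cells of BTYNB thus carried class II transcript in a larger share of cells than T cells of the same library, at the same number of UMIs. Neutrophils of BTYNB, 476 cells with at least 10 UMIs of S100a8 and S100a9, at most 2 of the keratins and none of Csf1r, gave 32.8% (28.6 to 37.2%).

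Among leukocytes, thinned myeloid cells with a UMI of H2-Aa made up 94.9% in control, 89.1% with BTYNB, 98.96% with anti-PD-1 and 96.4% in the combination. For cDC the shares were 92.96% in control, 96.5% with BTYNB, 98.8% with anti-PD-1 and 99.3% in the combination, and for B cells 91.99% in BTYNB and 87.4% in combination. H2-DMb2 separated these cells: 53.7% (51.96 to 55.4%) of B cells and 7.57% (6.66 to 8.55%) of myeloid cells of BTYNB had a UMI. Tumor cells with a UMI of H2-DMb2 made up 0.548% in control, 1.12% with BTYNB, 3.85% with anti-PD-1 and 1.67% in the combination, against 0.997% (0.559 to 1.64%) of T cells in BTYNB. The control share was below that of these T cells and the BTYNB share was within its interval, so neither was set apart from cells that should lack the gene by the share alone, whereas the share in anti-PD-1, 3.85% (3.49 to 4.22%), was above the share in these T cells of another library. In combination 7 of 45 T cells had a UMI of H2-DMb2, with 13 of the 45 also in the cDC gate. Tumor cells with a UMI of Ciita made up 1.67% in control, 2.04% with BTYNB, 2.58% with anti-PD-1 and 2.59% in the combination, compared with 0.931% (0.510 to 1.56%) of T cells.

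Transcripts released from broken cells can be captured with any cell, so the tumor level of the class II genes was set beside that of C1qa, C1qb, C1qc and Tyrobp, which myeloid cells express strongly. In tumor cells these 4 genes summed to 14.2 CPM in control, 14.9 with BTYNB, 35.4 with anti-PD-1 and 44.3 in the combination. Relative to myeloid cells of the same library this is 0.239% in control, 0.353% with BTYNB, 0.466% with anti-PD-1 and 0.778% in the combination. Scaling the myeloid level of each class II gene by this share gives 0.795 to 8.20% of its tumor level, over the 8 genes and 4 libraries. This scaling covers only RNA that goes with the 4 genes, and not class II RNA released by cDC or B cells. For H2-Aa it gives 23.4 CPM in BTYNB and 49.0 in combination, below the levels of T cells outside the cDC gate given above. For H2-DMb2 those T cells were above the tumor cells in both libraries. The part of other sources in the tumor level was not tested. The ratio of H2-Aa to the 4 genes in tumor cells was 55.9 in control, 69.8 with BTYNB, 40.4 with anti-PD-1 and 28.1 in the combination, against 0.692 to 1.57 in myeloid cells. The summed level of the 7 myeloid markers in tumor cells, none of which was at 0, was also higher in the treated libraries, at 26.6 CPM in control, 35.2 with BTYNB, 52.5 with anti-PD-1 and 59.3 in the combination.

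The libraries differed in composition, and the cells that carried most class II transcript differed as well. Each cell was counted once, in the order tumor, cDC, myeloid and B. The tumor share of all cells was 90.8% in control, 19.7% with BTYNB, 90.9% with anti-PD-1 and 62.04% in the combination. The tumor share of the UMIs of the 3 classical chains was 79.4% in control, 17.7% with BTYNB, 82.96% with anti-PD-1 and 32.99% in the combination. cDC made up 0.779% in control, 5.68% with BTYNB, 0.574% with anti-PD-1 and 10.8% in the combination, and their share of these UMIs was 3.49% in control, 28.3% with BTYNB, 2.15% with anti-PD-1 and 29.04% in the combination. For myeloid cells the share of the UMIs was 11.6% in control, 31.6% with BTYNB, 8.95% with anti-PD-1 and 26.4% in the combination. In control and anti-PD-1 most class II transcript was therefore in tumor cells, and in BTYNB and combination most of it was in other cells. These are shares of a library and not levels per cell.

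In tumor cells the class II chains were higher in each treated library than in control. The 4 genes H2-Aa, H2-Ab1, H2-Eb1 and Cd74 summed to 2515 CPM in control, 3224 with BTYNB, 3971 with anti-PD-1 and 3738 in the combination, and the control library was the lowest. Over control, the log2 ratio of this sum was 0.36 (0.35 to 0.37) with BTYNB and 0.66 (0.65 to 0.67) with anti-PD-1. For combination it was -0.087 (-0.095 to -0.079) over anti-PD-1 and 0.21 (0.20 to 0.22) over BTYNB. Among cells of at least 5115 UMIs the value over anti-PD-1 turned to 0.0057. The comparisons of BTYNB and of anti-PD-1 use the same control library and are not independent. T cells outside the cDC gate also carried class II transcript in BTYNB and combination, as given above. Control and anti-PD-1 held too few T cells to show such a background. The part of this background in the differences between libraries was not tested.

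A gene was counted as past 1.5-fold when its log2 ratio, computed with 1 CPM added to both levels, exceeded 0.58 in size, among genes with at least 100 UMIs in the gate of either library. In BTYNB against control, 1 of 8 members, H2-DMb2, was past 1.5-fold upward, where 3.60% of the 12705 genes tested were. In anti-PD-1 against control, 4 of 8 members, H2-Aa, H2-Ab1, H2-Eb1 and H2-DMb2, were past 1.5-fold upward, where 5.80% of 13094 genes were. In combination against anti-PD-1, 1 member, H2-DMb2, was past 1.5-fold downward, where 5.55% of 13010 genes were. In combination against BTYNB none of the 8 members was past 1.5-fold, where 0.644% of 12418 genes were in either direction. The median log2 ratio of the 8 members was 0.31, 0.54, -0.052 and 0.34 in these comparisons, beside -0.0014, -0.066, 0.049 and -0.015 over all genes tested.

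Among the chains, H2-Aa and H2-Eb1 had the highest ratios in anti-PD-1. Their log2 ratios over control were 0.85 (0.83 to 0.86) and 0.84 (0.82 to 0.86), and that of H2-Ab1 was 0.61 (0.59 to 0.63). Cd74 differed by 0.25 (0.23 to 0.26) in the same comparison and by 0.39 (0.37 to 0.40) in BTYNB. In BTYNB the log2 ratios of the chains were 0.39 for H2-Aa, 0.25 for H2-Ab1 and 0.38 for H2-Eb1. Added to anti-PD-1, BTYNB went with values of -0.20 (-0.22 to -0.19) for H2-Aa and 0.014 (-0.0035 to 0.032) for H2-Ab1, and the latter interval includes 0. Added to BTYNB, anti-PD-1 went with 0.26 (0.24 to 0.27) for H2-Aa, 0.38 (0.35 to 0.40) for H2-Ab1 and -0.074 (-0.092 to -0.056) for Cd74.

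The H2-DM genes did not move as a group in tumor cells. H2-DMb2 differed from control by a log2 ratio of 0.999 (0.83 to 1.17) in BTYNB and 2.64 (2.497 to 2.78) in anti-PD-1, and in combination it was -1.22 (-1.33 to -1.11) relative to anti-PD-1. The BTYNB value compares levels that are both below that of T cells in BTYNB. H2-DMb1, its paralog, differed by -0.15 (-0.22 to -0.093) in BTYNB and -0.0032 (-0.058 to 0.052) in anti-PD-1. H2-DMa, the partner of both, differed by -0.090 (-0.16 to -0.021) and 0.40 (0.34 to 0.45). The transcripts of H2-DMb1 and H2-DMb2 are 94.7% identical over 1218 aligned bases (GENCODE, GRCm38), and 88.5% identical over the 234 bases that align within the last 400 of each, so how reads were split between them is uncertain. Ciita differed from control by 0.16 (0.043 to 0.29) in BTYNB and 0.49 (0.39 to 0.60) in anti-PD-1.

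Myeloid cells also had more class II transcript in the treated libraries, with another split over the members. The 4-gene sum was 19740.1 CPM in control, 30320.3 with BTYNB, 24979 with anti-PD-1 and 27750.5 in the combination, lowest in control and highest in BTYNB. Its log2 ratio stood at 0.62 (0.60 to 0.64) with BTYNB and 0.34 (0.32 to 0.36) with anti-PD-1 over control, and for combination it was 0.15 (0.14 to 0.17) over anti-PD-1 and -0.13 (-0.13 to -0.12) over BTYNB. The last value turned to 0.011 when cells were averaged instead of summed. In BTYNB against control 4 of 8 members, H2-Aa, H2-Ab1, H2-Eb1 and Ciita, were past 1.5-fold upward, where 12.6% of 9247 genes were. In anti-PD-1 against control H2-Aa was past 1.5-fold upward, where 3.96% of 3206 genes were, and H2-DMb2 downward, where 4.74% were. In combination against anti-PD-1 the 3 H2-DM genes were past 1.5-fold upward, where 9.46% of 8126 genes were. In combination against BTYNB none of the members was, where 10.2% of 9308 genes were in either direction. The median of the members was 0.57, 0.040, 0.42 and -0.012 in the 4 comparisons, beside -0.015, -0.069, 0.0038 and -0.017 over all genes.

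The H2-DM genes of myeloid cells were lowest in anti-PD-1. H2-DMa was at 451 CPM in control, 496 with BTYNB, 339 with anti-PD-1 and 512 in the combination. H2-DMb1 was at 276 CPM in control, 343 with BTYNB, 217 with anti-PD-1 and 341 in the combination. H2-DMb2 was at 152 CPM in control, 134 with BTYNB, 64.4 with anti-PD-1 and 133 in the combination, and was thus highest in tumor cells but lowest in myeloid cells of anti-PD-1. Over the 8 members, those with opposite directions in tumor and myeloid cells, both intervals away from 0, numbered 2 for BTYNB over control, where 7.74% of all genes did so, 2 for anti-PD-1 over control (7.28%), 3 for combination over anti-PD-1 (9.17%) and 1 for combination over BTYNB (9.26%). The log2 ratios of anti-PD-1 over control were -0.41 (-0.57 to -0.26) for H2-DMa, -0.35 (-0.55 to -0.15) for H2-DMb1 and -1.24 (-1.57 to -0.91) for H2-DMb2. The myeloid gate of anti-PD-1 held 384 cells, and the H2-DMb2 value rests on 111 UMIs. The make-up of the gate also differed: the summed cDC markers were 239 CPM in control, 652 with BTYNB, 357 with anti-PD-1 and 668 in the combination. The summed neutrophil markers were 406 CPM in control, 1716 with BTYNB, 49.9 with anti-PD-1 and 37.1 in the combination, and the part of either in these differences was not tested. Without cells of the cDC gate, the 4-gene sum of myeloid cells was 19221 CPM in control, 27396 with BTYNB, 24509.7 with anti-PD-1 and 24941 in the combination.

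The cDC gate showed the widest range of class II levels between libraries. The 4-gene sum was 19953 CPM in control, 38883 with BTYNB, 22089 with anti-PD-1 and 34572 in the combination, with BTYNB and combination both above control and anti-PD-1. The log2 ratio was 0.96 (0.93 to 0.99) for BTYNB over control, 0.15 (0.11 to 0.19) for anti-PD-1 over control, 0.65 (0.62 to 0.67) for combination over anti-PD-1 and -0.17 (-0.18 to -0.16) for combination over BTYNB. In BTYNB against control 7 of 8 members were past 1.5-fold upward, all but H2-DMb2, where 19.9% of 7590 genes were. In combination against anti-PD-1 5 of 8 members were, where 23.9% of 6551 genes were. In anti-PD-1 against control none of the 7 members tested was, where 10.5% of 827 genes were in either direction, and in combination against BTYNB none of 8 was, where 3.72% of 7612 were. Ciita in cDC was at 121 CPM in control, 283 with BTYNB, 161 with anti-PD-1 and 289 in the combination, so that control and anti-PD-1 were both below BTYNB and combination. The median of the members was 0.94, -0.034, 0.78 and -0.074, beside -0.0081, -0.066, 0.11 and -0.0011 over all genes. The cDC gates of control and anti-PD-1 held 71 and 85 cells, of which 10 and 16 were also in the tumor gate, and the summed tumor markers were higher there, as given above. Within the tumor gate itself these markers summed to 1353 CPM in control and 1226 with anti-PD-1. The summed cDC markers of the cDC gate were 1004 CPM in control, 2045 with BTYNB, 1135 with anti-PD-1 and 2297 in the combination. They too were lower in control and anti-PD-1 than in BTYNB and combination. The part of the overlapping cells and of the gate's make-up in the class II difference was not tested.

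B cells could be compared between BTYNB and combination. H2-Aa was at 3300.2 and 3092 CPM, a log2 ratio for combination over BTYNB of -0.094 (-0.14 to -0.050), and H2-Ab1 and H2-Eb1 differed by -0.083 (-0.13 to -0.040) and -0.044 (-0.096 to 0.0076). Cd74 differed by -0.62 (-0.65 to -0.58), H2-DMb2 by -0.81 (-0.94 to -0.69) and Ciita by -0.77 (-1.01 to -0.54), and these 3 of 8 members were past 1.5-fold downward, where 22.7% of 8726 genes were. The B cells of BTYNB were shallow, with a median of 1907.5 UMIs against 6991 in combination. Among cells of at least 5115 UMIs, the largest of the 4 libraries' lowest cell depths, the direction turned: the 4-gene sum was higher in combination by 0.078 on the log2 scale, with 175 cells against 230, and H2-DMb2 by 0.99. The B-cell markers summed to 4504 CPM in BTYNB and 2686 in combination, and the myeloid markers to 501 and 1616.

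**Figure D2:**
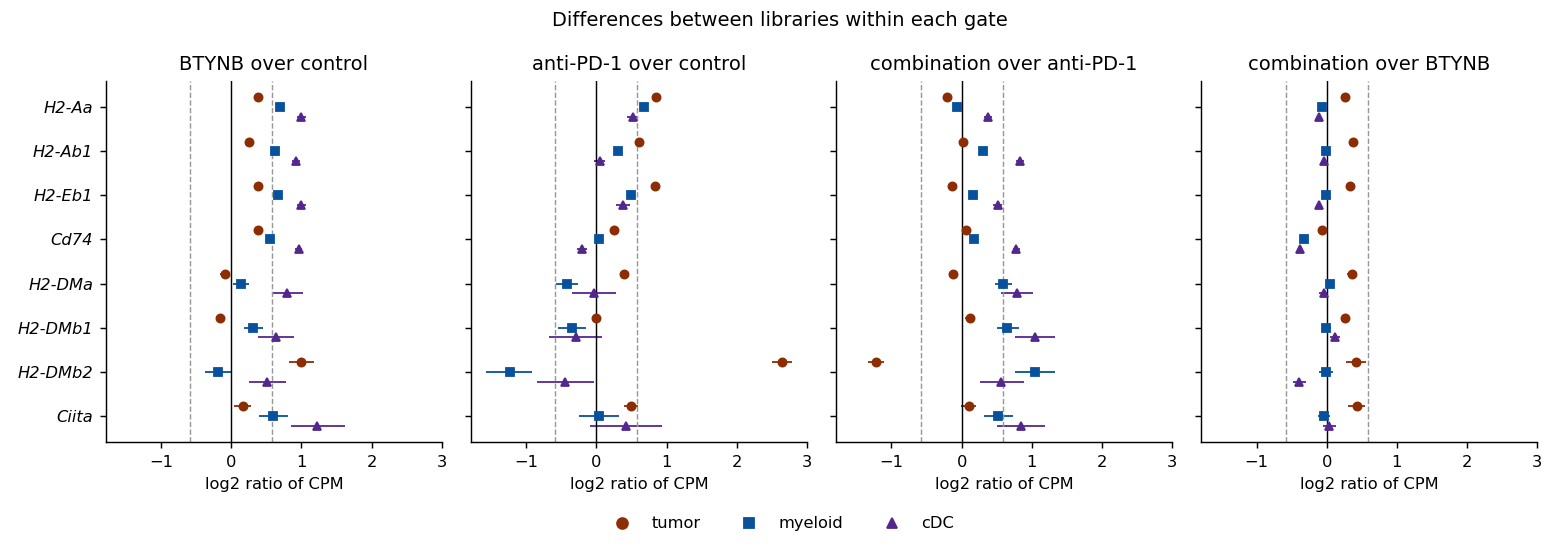
Log2 ratio of CPM of each class II gene in 4 comparisons of libraries, within the tumor, myeloid and cDC gates; bars are 95% intervals for counting error and dashed lines mark 1.5-fold. H2-DMb2 lies at 2.64 in tumor cells and -1.24 in myeloid cells for anti-PD-1 over control.

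Tumor cells were next divided into states by counts of genes outside the class II pathway. Cells with at least 5 UMIs of Upk3b and Aldh1a1, a uroplakin of mesothelium and a retinaldehyde dehydrogenase, formed the Upk3b state, and cells with at least 5 UMIs of Cd24a, Gkn2 and Krtdap formed the Cd24a state, where a cell could be in both or neither. Cells of the Upk3b state numbered 4703 in control, 2661 with BTYNB, 6966 with anti-PD-1 and 3628 in the combination, and those of the Cd24a state 485 in control, 433 with BTYNB, 2771 with anti-PD-1 and 631 in the combination. Within each of the 4 libraries the 4-gene sum was higher in the Upk3b state than in other tumor cells, with log2 ratios of 0.30 in control, 0.54 with BTYNB, 1.03 with anti-PD-1 and 0.28 in the combination. It was lower in the Cd24a state than in other tumor cells, with log2 ratios of -0.51 in control, -0.19 with BTYNB, -2.27 with anti-PD-1 and -0.45 in the combination. The anti-PD-1 library showed the widest gap in both. Cells of the Cd24a state that were also in the Upk3b state numbered 447 in control, 421 with BTYNB, 1280 with anti-PD-1 and 592 in the combination. Both thresholds count UMIs, so a deeper cell reaches a state more readily. With BTYNB, 1 tumor cell of the Cd24a state and 573 outside it had fewer than 3500 UMIs. The 7 myeloid markers summed to 16.7 CPM in control, 39.1 with BTYNB, 45.3 with anti-PD-1 and 36.2 in the combination in the Cd24a state and to 27.6 CPM in control, 34.2 with BTYNB, 55.8 with anti-PD-1 and 64.8 in the combination outside it, thus lower in the state except with BTYNB. In the Upk3b state they summed to 26.5 CPM in control, 31.95 with BTYNB, 48.6 with anti-PD-1 and 50.4 in the combination, and to 26.7 CPM in control, 59.8 with BTYNB, 59.8 with anti-PD-1 and 116 in the combination outside it, higher outside, where class II was lower, in each library but control, where they were close. Of the 7 markers, 1 was at 0 in the Cd24a state of control, and the part of these transcripts in the state differences was not tested.

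In anti-PD-1, H2-Aa was at 364 CPM in the Cd24a state (357 to 372) and 1915 in the other tumor cells (1904 to 1926). Each of the 8 members was past 1.5-fold lower in the Cd24a state of anti-PD-1, with log2 ratios from -2.67 for H2-DMb2 to -1.73 for H2-DMb1, where 23.5% of 12325 genes were. Past 1.5-fold lower in the same comparison were 1 of 8 members in control, H2-Aa, where 7.16% of 12393 genes were, 0 of 8 in BTYNB, where 5.79% were, and 2 of 8 in combination, H2-DMb2 and Ciita, where 11.6% were. For the Upk3b state, 8 of 8 members were past 1.5-fold higher in anti-PD-1, where 9.03% of genes were, against 1 in control (H2-DMb2, 8.82% of genes), 2 in BTYNB (H2-Eb1 and H2-DMb2, 5.37%) and 2 in combination (H2-DMb2 and Ciita, 5.72%). H2-DMb2 was past 1.5-fold higher in the Upk3b state in each library, with log2 ratios of 1.84 in control, 0.83 with BTYNB, 2.58 with anti-PD-1 and 0.89 in the combination. Averaged over cells instead of summed, the BTYNB value was -0.022, and that of Ciita -0.079.

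The 2 states overlap, so the classes were also separated. In anti-PD-1 the 5686 cells in the Upk3b state alone had an H2-Aa level of 2108 CPM, the 2466 cells in neither 1437, the 1280 cells in both 574, and the 1491 cells in the Cd24a state alone 154. H2-DMb2 was at 66.4, 13.96, 13.4 and 2.65 CPM in the same order. The Cd24a state alone was rare outside anti-PD-1, with 38 cells in control, 12 in BTYNB and 39 in combination. In cells of both states, H2-Aa was at 554 CPM in control, 932 with BTYNB, 574 with anti-PD-1 and 937 in the combination, so the anti-PD-1 level was close to control and below BTYNB and combination. In the Upk3b state alone, H2-Aa was at 892 CPM in control, 1127 with BTYNB, 2108 with anti-PD-1 and 1374 in the combination, and anti-PD-1 was the highest. Among cells in neither state, the log2 ratio of the 4-gene sum was 0.82 (0.80 to 0.83) for anti-PD-1 over control, 0.091 (0.065 to 0.12) with BTYNB over control and -0.28 (-0.30 to -0.25) for the combination over anti-PD-1, and H2-Ab1 in BTYNB over control turned to -0.10. These cells of BTYNB had a median of 3933 UMIs, against 9346 in control, and the state thresholds count UMIs, so a shallow cell reaches a state less readily.

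**Figure D3:**
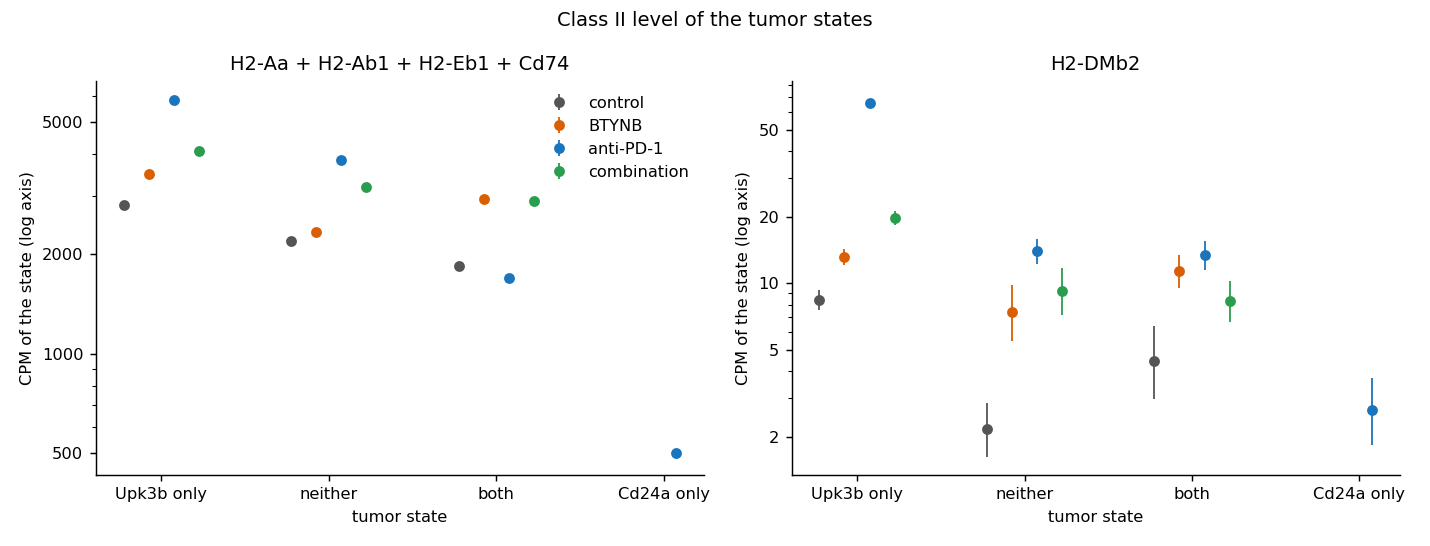
Summed level of H2-Aa, H2-Ab1, H2-Eb1 and Cd74 (left) and level of H2-DMb2 (right) in tumor cells of the Upk3b state alone, of neither state, of both, and of the Cd24a state alone, drawn where a class held at least 50 cells (CPM, log axes; bars are 95% Poisson intervals). In anti-PD-1 the sum goes from 5848 CPM in the Upk3b state alone to 499.9 in the Cd24a state alone.

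The spread of class II transcript over single tumor cells was examined after thinning each cell to 3500 UMIs, which left out 574 BTYNB tumor cells. The median number of UMIs of the 3 classical chains per cell was 5 in control, 7 with BTYNB, 10 with anti-PD-1 and 9 in the combination. Cells without any such UMI made up 9.87% in control, 7.42% with BTYNB, 15.8% with anti-PD-1 and 3.09% in the combination, and cells with 20 or more 3.85% in control, 8.11% with BTYNB, 24.3% with anti-PD-1 and 13.2% in the combination. The anti-PD-1 library therefore had both the largest share of cells without class II UMIs and the largest share of cells with 20 or more. The variance over the mean, a ratio that is 1 for counts of a common level, was 5.45 in control, 6.38 with BTYNB, 11.6 with anti-PD-1 and 6.47 in the combination.

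The cells without class II UMIs in anti-PD-1 lay mainly in the Cd24a state. There 49.4% of 2771 cells (47.5 to 51.3%) had no UMI of the 3 chains, against 4.31% of 8152 other tumor cells. The corresponding share of the Cd24a state was 23.3% in control, 10.6% with BTYNB and 4.12% in the combination. Outside the Cd24a state, the median number of class II UMIs was 5 in control, 7 with BTYNB, 13 with anti-PD-1 and 10 in the combination, and the anti-PD-1 cells lay above those of the other libraries over most of the range.

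**Figure D4:**
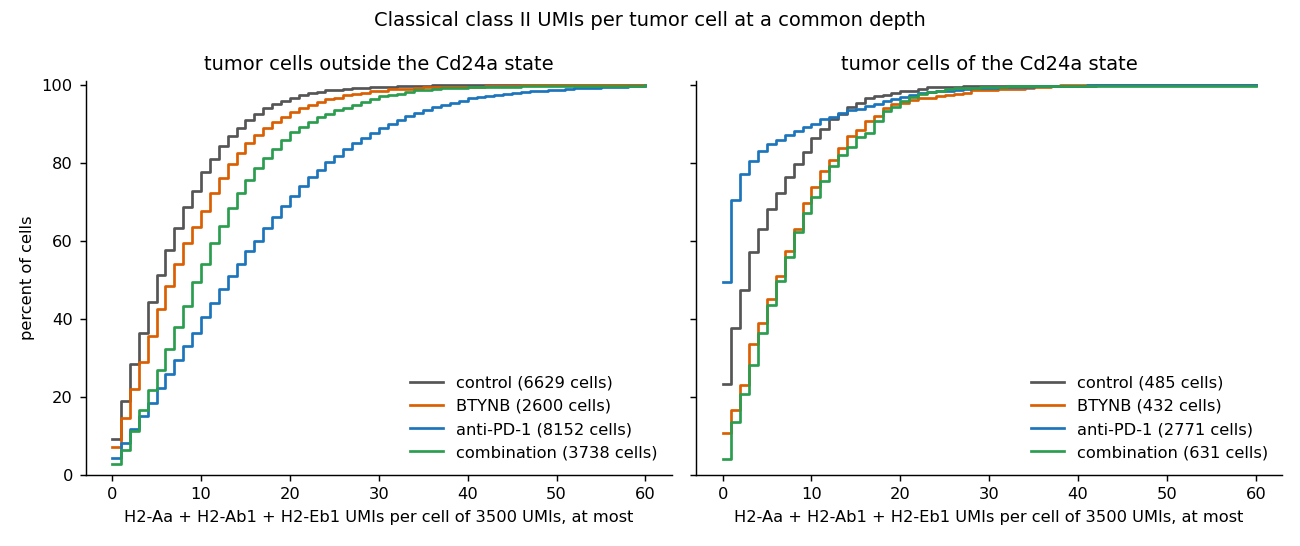
Cumulative percent of tumor cells (y axis) by number of UMIs of H2-Aa, H2-Ab1 and H2-Eb1 together in a cell thinned to 3500 UMIs (x axis), outside the Cd24a state (left) and within it (right); lines are libraries. The anti-PD-1 line starts at 4.31% on the left and at 49.4% on the right.

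The class II genes kept different proportions to each other in tumor cells and leukocytes. These ratios are UMIs of 1 gene per UMI of another within a gate, and since each UMI is a capture at the 3′ end of a transcript they are not scaled by length and are compared between gates and libraries only. H2-Ab1 per H2-Aa in tumor cells was 0.622 in control, 0.565 with BTYNB, 0.527 with anti-PD-1 and 0.612 in the combination. In myeloid cells it was 1.27 in control, 1.22 with BTYNB, 0.981 with anti-PD-1 and 1.28 in the combination, and in cDC 1.43 in control, 1.36 with BTYNB, 1.03 with anti-PD-1 and 1.42 in the combination. The ratio was lowest in the anti-PD-1 library in each of the 3 gates. The myeloid and cDC gates of anti-PD-1 had the highest summed tumor markers, at 701 and 1016 CPM, against 611 and 844 in control. The part of tumor RNA in the myeloid and cDC ratios was not tested. H2-Eb1 per H2-Aa differed less, at 0.682 to 0.715 in tumor cells and 0.688 to 0.811 in myeloid cells.

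Cd74 per H2-Aa in tumor cells was 0.853 in control, 0.852 with BTYNB, 0.563 with anti-PD-1 and 0.677 in the combination. In myeloid cells it was 1.74 in control, 1.58 with BTYNB, 1.12 with anti-PD-1 and 1.32 in the combination, and in cDC 1.56 in control, 1.52 with BTYNB, 0.944 with anti-PD-1 and 1.25 in the combination. It too was lowest in anti-PD-1, next lowest in combination, and higher in control and BTYNB, in each of the 3 gates. The part of tumor RNA in these myeloid and cDC ratios was not tested either. H2-DMb2 per H2-DMb1 in tumor cells was 0.0885 in control, 0.197 with BTYNB, 0.553 with anti-PD-1 and 0.219 in the combination. In leukocytes it was 0.320 in control, 0.447 with BTYNB, 0.557 with anti-PD-1 and 0.335 in the combination for cDC1, 1.96 in control, 1.44 with BTYNB, 1.57 with anti-PD-1 and 1.22 in the combination for cDC2, and 4.84 and 2.57 for B cells of BTYNB and combination. The values of cDC2 and B cells lay above those of cDC1 in every library compared. The myeloid gate, at 0.551 in control, 0.390 with BTYNB, 0.297 with anti-PD-1 and 0.388 in the combination, overlapped in range with cDC1 and had its lowest ratio in the library in which tumor cells had their highest. H2-Aa per UMI of the class I gene H2-K1 was 0.377 in control, 0.362 with BTYNB, 0.510 with anti-PD-1 and 0.424 in the combination for tumor cells, highest in anti-PD-1, and 1.97 in control, 2.97 with BTYNB, 2.25 with anti-PD-1 and 2.51 in the combination for myeloid cells.

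**Figure D5:**
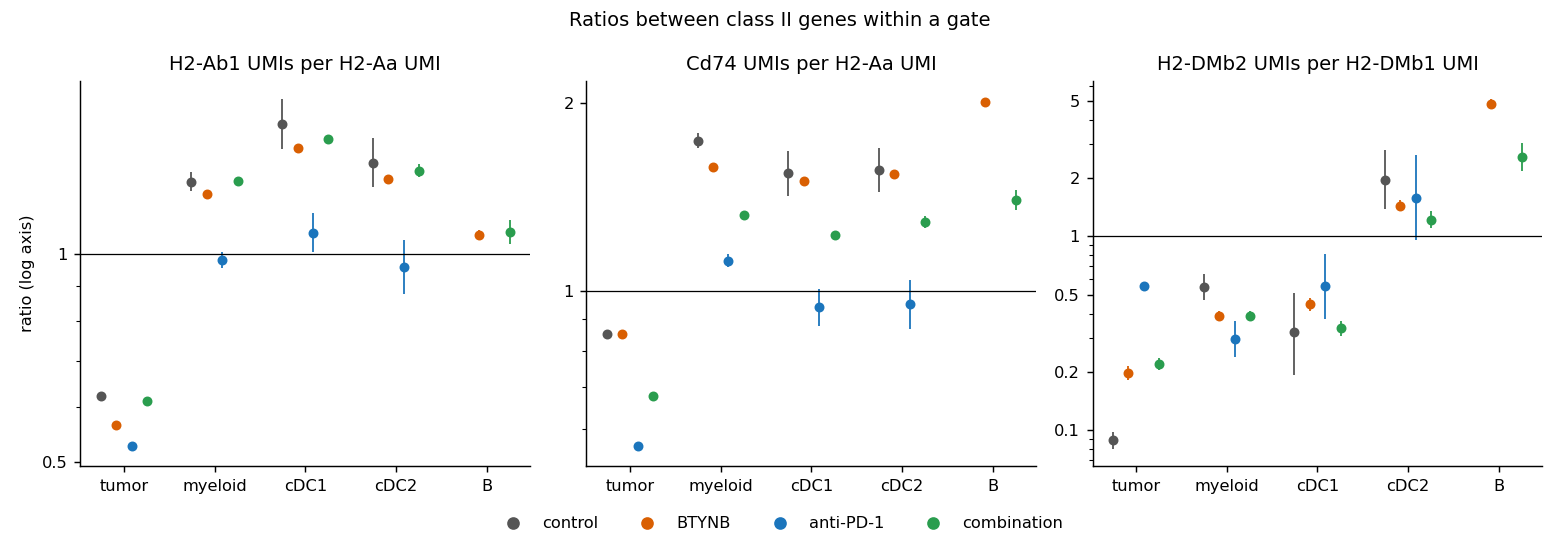
UMIs of H2-Ab1 per H2-Aa, Cd74 per H2-Aa and H2-DMb2 per H2-DMb1 by gate and library (log axes; bars are 95% intervals for counting error; drawn where a gate held at least 30 cells; B cells are without tumor-gate cells). The first 2 ratios are below 1 in tumor cells of all 4 libraries, and in tumor cells, myeloid cells and both kinds of cDC the anti-PD-1 point of these ratios is the lowest.

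Across single tumor cells of a library the chains varied together. Pearson's r of log-scaled UMIs per 10000 between H2-Aa and H2-Eb1 was 0.763 in control, 0.709 with BTYNB, 0.887 with anti-PD-1 and 0.794 in the combination, over the tumor cells of each gate, which share a library and differ in depth and state. Cd74 had an r with the 3 chains together of 0.734 in control, 0.655 with BTYNB, 0.856 with anti-PD-1 and 0.721 in the combination. The r of H2-DMa, a sparser member, was 0.357 in control, 0.356 with BTYNB, 0.433 with anti-PD-1 and 0.389 in the combination. For Ciita, which had a UMI in 14.1 to 22.3% of cells, it was 0.189 in control, 0.172 with BTYNB, 0.251 with anti-PD-1 and 0.171 in the combination. In counts this sparse such values are descriptions only. The class I gene H2-K1 had 0.264 in control, 0.193 with BTYNB, 0.637 with anti-PD-1 and 0.246 in the combination. For each of the genes named here the r was highest in anti-PD-1, the library with the widest spread of class II levels.

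Of 9306 other genes found in at least 5% of tumor cells of every library, the 10 whose lowest r with the 3 chains was highest were Fxyd3, Mgst1, Tnfsf13os, H2-T23, Zfp36, C1s1, ENSMUSG00000121069, Rspo1, Id3 and Plaat3. Fxyd3, a regulator of the sodium pump, had 0.265 in control, 0.327 with BTYNB, 0.551 with anti-PD-1 and 0.339 in the combination, and Mgst1, a microsomal glutathione transferase, 0.261 in control, 0.302 with BTYNB, 0.547 with anti-PD-1 and 0.330 in the combination. The 5 most opposed genes were Eif2s2, Tagln2, Ybx3, Tpm1 and Actb, with -0.222 to -0.534 for Eif2s2, a translation initiation subunit. Apart from anti-PD-1 the values of the like genes were at or below 0.339, under those among the class II chains, and such low values are given as a description.

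Since the chains varied together while H2-DMb1 and H2-DMb2 differed, the promoters of both kinds are shown. RefSeq (GRCm38.p6) promoter windows of 250 bases before to 50 after the start were available for 5 of the 7 members looked up, H2-Aa, H2-Eb1, H2-DMa, H2-DMb1 and H2-DMb2, all on chromosome 17. The letters searched on both strands were AACNGATG for the X box, CTGATTGG for the Y box and its shorter core ATTGG, which lies within it. Capitals mark these matches, and CCAAT in capitals is ATTGG on the other strand. H2-Aa (chr17:34287774-34288073, minus strand), H2-Eb1 (chr17:34305617-34305916, plus strand), H2-DMb1 (chr17:34152941-34153240, plus strand) and H2-DMb2 (chr17:34144999-34145298, plus strand) read 5′ to 3′:
H2-Aa: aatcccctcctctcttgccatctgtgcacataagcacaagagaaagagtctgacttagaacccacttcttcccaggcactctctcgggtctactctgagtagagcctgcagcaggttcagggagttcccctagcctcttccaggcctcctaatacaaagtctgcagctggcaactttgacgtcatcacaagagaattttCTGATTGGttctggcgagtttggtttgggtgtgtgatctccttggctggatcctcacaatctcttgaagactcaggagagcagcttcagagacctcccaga
H2-Eb1: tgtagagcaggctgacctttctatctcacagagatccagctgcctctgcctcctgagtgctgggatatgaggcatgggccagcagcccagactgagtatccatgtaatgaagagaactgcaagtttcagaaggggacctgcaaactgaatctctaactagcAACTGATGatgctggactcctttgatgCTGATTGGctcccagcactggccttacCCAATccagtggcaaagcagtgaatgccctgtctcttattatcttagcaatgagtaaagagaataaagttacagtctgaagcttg
H2-DMb1: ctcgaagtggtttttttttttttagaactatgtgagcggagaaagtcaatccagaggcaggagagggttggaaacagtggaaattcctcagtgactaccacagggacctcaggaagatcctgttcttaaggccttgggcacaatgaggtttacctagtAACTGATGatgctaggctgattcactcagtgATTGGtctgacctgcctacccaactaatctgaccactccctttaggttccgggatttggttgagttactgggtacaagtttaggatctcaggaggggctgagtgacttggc
H2-DMb2: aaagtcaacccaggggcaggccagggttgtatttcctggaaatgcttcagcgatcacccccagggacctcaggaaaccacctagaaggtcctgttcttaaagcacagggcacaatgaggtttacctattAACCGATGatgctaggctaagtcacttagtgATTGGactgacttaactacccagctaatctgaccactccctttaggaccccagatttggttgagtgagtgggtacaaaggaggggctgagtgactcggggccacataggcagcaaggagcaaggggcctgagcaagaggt
H2-Eb1 holds the X box letters followed after 22 bases by the shorter core, there as the end of a full Y box, and H2-DMb1 and H2-DMb2 hold them followed after 23 bases by the shorter core. H2-Aa holds the full Y box without these X box letters. Of 32851 promoters in the table, 2.32% hold the X box letters, 4.10% the Y box, 37.4% the shorter core, and 17 promoters (0.0517%) the X box letters followed by the shorter core within 40 bases, among them H2-Eb1, H2-DMb1, H2-DMb2 and H2-Eb2. H2-DMa has 2 windows, of which 1 holds ATTGG and neither the X box letters. H2-DMb1 and H2-DMb2 thus hold these letters at the same spacing.

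The rest of the pathway was read from a list of 34 genes, tested where at least 100 UMIs were present. In tumor cells, 2 of 27 genes tested were past 1.5-fold higher in BTYNB than control, where 3.60% of all genes were, and 3 of 28 in anti-PD-1 than control, where 5.80% were. None was lower, where 3.21% and 3.03% of all genes were. In combination, 1 of 29 was higher than in anti-PD-1, where 4.27% were, and 1 lower, where 5.55% were, shares near those of all genes. Against BTYNB, 1 of 29 was higher in combination, where 0.395% were. H2-Eb2, a class II beta-chain gene beside H2-Eb1, had tumor cell CPM of 2.69 in control, 4.75 with BTYNB, 11.4 with anti-PD-1 and 7.13 in the combination, highest in anti-PD-1 as for H2-DMb2, past 1.5-fold upward over control in BTYNB and anti-PD-1 and downward in combination against anti-PD-1. H2-Oa, a chain of the H2-DM inhibitor H2-O, was at 0.240 to 0.587 CPM in tumor cells. Its partner H2-Ob had tumor cell CPM of 0.440 in control, 2.02 with BTYNB, 0.485 with anti-PD-1 and 1.42 in the combination, past 1.5-fold in BTYNB against control. The summed B-cell markers in tumor cells were likewise higher in BTYNB and combination, at 3.89 CPM in control, 15.8 with BTYNB, 2.95 with anti-PD-1 and 15.03 in the combination, none of the 6 at 0, and their part in the H2-Ob values was not tested. In leukocytes H2-Ob was at 503 CPM in B cells of BTYNB and 91.4 to 191 CPM in cDC. H2-Ea had at most 2 UMIs in the tumor cells of any library.

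The RFX subunits, which act with Ciita at the promoters, were measured in both tumor and myeloid cells: Rfx5 was at 12.3 to 16.3 CPM in tumor cells and 9.58 to 12.3 in myeloid cells, Rfxap at 10.3 to 11.3 and 10.5 to 19.1, and Rfxank at 5.53 to 7.74 and 5.70 to 7.54. The endosomal enzymes differed between gates. Ctss, the cathepsin that trims the invariant chain in professional antigen-presenting cells, had tumor cell CPM of 13.7 in control, 19.1 with BTYNB, 29.1 with anti-PD-1 and 33.4 in the combination, against 4463 to 6218 in myeloid cells. It was past 1.5-fold in anti-PD-1 against control and in combination against BTYNB, and its order over the libraries was that of the myeloid markers in tumor cells given above. Ifi30, the lysosomal thiol reductase, had tumor cell CPM of 67.5 in control, 66.3 with BTYNB, 65.4 with anti-PD-1 and 82.8 in the combination, against 1128 to 1476 in myeloid cells. Ctsl was at 158 to 213 CPM in tumor cells and 114.97 to 218 in myeloid cells. The costimulatory genes Cd80, Cd86 and Cd40 and the class II ubiquitin ligase Marchf1 were at 0.120 to 2.53 CPM in tumor cells.

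On the interferon-gamma side, none of the receptor and kinase genes Ifngr1, Ifngr2, Jak1 and Jak2 was past 1.5-fold in any tumor comparison. Irf1, an interferon-induced transcription factor, had tumor cell CPM of 97.6 in control, 133 with BTYNB, 129 with anti-PD-1 and 145 in the combination, lowest in control. Irf8, a myeloid and B cell factor, was at 0.814 in control, 1.69 with BTYNB, 1.77 with anti-PD-1 and 2.71 in the combination, past 1.5-fold in anti-PD-1 against control. It had a UMI in 0.703 to 2.88% of tumor cells and was at 408 to 1010 CPM in the cDC gate. Its order over the libraries was that of the myeloid markers in tumor cells. Cd83, which opposes the turnover of class II, was at 0.400 in control, 0.968 with BTYNB, 0.594 with anti-PD-1 and 1.92 in the combination, past 1.5-fold in combination against anti-PD-1. It had a UMI in 0.408 to 2.04% of tumor cells. The part of leukocyte RNA in the Irf8 and Cd83 values was not tested. Among class I genes H2-K1 was at 2108 in control, 2875 with BTYNB, 2807 with anti-PD-1 and 2933 in the combination. B2m was at 4118 in control, 3945 with BTYNB, 3869 with anti-PD-1 and 4719 in the combination, and neither was past 1.5-fold in a tumor comparison.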

How the data were processed

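Single-cell libraries were prepared with BD Rhapsody whole-transcriptome capture. The authors processed the reads with the BD Rhapsody Sequence Analysis Pipeline and deposited raw UMI counts per gene and cell, aligned per the labels to GRCm39. The study also used scDblFinder and Seurat, and whether any cell had been removed from the deposited matrices is not given in the sources used here. Labels and methods give different doses of the agents, so none is stated. Cells with at least 200 genes and at most 33% mitochondrial UMIs were kept. UMIs were summed per gate and library (Python 3.11.15, numpy 2.4.6, scipy 1.17.1) and scaled to CPM. Intervals (95%) are exact Poisson for levels, Clopper-Pearson for shares, and an exact binomial share of 2 counts for ratios. The ratio interval recovered known changes in simulated Poisson counts, which share its assumption, so this is no check on these data. Spread between cells is left out. In tumor cells thinned to 3500 UMIs, the 3 classical chains had a variance over the mean of 5.45 to 11.6. UMIs without replicate libraries give counting error only, and the deepest gates give the narrowest intervals. No doublet caller was applied in the values reported. Alternatives were no cell filter, removal of the 5% of cells with the highest scrublet score (scanpy 1.11.5), a common UMI floor, means over cells, strict gates, median-of-ratios scaling, other thinning depths, no UMI minimum and another pseudocount. Named were the 8 members, pathway genes past 1.5-fold in a tumor comparison or named whatever their value, and the 10 most alike and 5 most opposed genes. H2-K1, B2m, Irf1, Ctsl, Cd80, Cd86, Cd40, Marchf1 and the receptor genes were added after their values were seen. The 8 genes, the lists and the gates were chosen with earlier results of these data known. Matching to RefSeq promoters used GRCm38.p6. No column of the files lacked a sample. A gene of the pathway list is not reported here.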

Additional observations from a re-analysis of the deposited data

Results flagged for a closer look

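In 8 cases a class II gene moved in opposite directions in tumor cells and in myeloid cells of the same 2 libraries, with both counting intervals away from 0. These differences between gates were not tested, since each treatment is 1 library. Of all genes with at least 100 UMIs in both gates, 7.28 to 9.26% did so in the 4 comparisons, against 1 to 3 of the 8 members. For BTYNB over control, the log2 ratio of H2-DMa was -0.090 in tumor cells and 0.14 in myeloid cells, and that of H2-DMb1 -0.15 and 0.31. For anti-PD-1 over control, H2-DMa stood at 0.40 in tumor cells and -0.41 in myeloid cells, and H2-DMb2 at 2.64 and -1.24. For the combination over anti-PD-1, H2-Eb1 stood at -0.14 and 0.17, H2-DMa at -0.12 and 0.60, and H2-DMb2 at -1.22 and 1.04. For the combination over BTYNB, H2-Aa stood at 0.26 and -0.074. Of the 8 cases, 6 concerned H2-DM genes, and the H2-DMb2 values of anti-PD-1 were the widest apart. With means over cells in place of sums, 2 of the 8 were lost, as myeloid H2-DMa for BTYNB over control turned to -0.069 and myeloid H2-Aa for the combination over BTYNB to 0.056.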

How the results depend on the processing

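Values are log2 ratios of the 4-gene sum unless a gene is named, and the cause of a shift was not tested except where the alternative itself removes cells. No paired analysis was possible because each treatment has 1 library. Without the cell filter, 189 of 189 values stayed within their counting intervals. Leaving out the 5% of cells with the highest scrublet score gave, in tumor cells, 0.35 for BTYNB over control, 0.65 for anti-PD-1 over control, -0.097 for the combination over anti-PD-1 and 0.20 for the combination over BTYNB; in myeloid cells 0.13 for the combination over anti-PD-1 and -0.14 for the combination over BTYNB; and -0.20 for the combination over BTYNB in cDC. The Upk3b state then stood at 0.58 with BTYNB, 1.07 with anti-PD-1 and 0.32 in the combination, and the Cd24a state at -2.44 with anti-PD-1. Means over cells gave 0.34 for BTYNB over control, 0.74 for anti-PD-1 over control, -0.14 for the combination over anti-PD-1 and 0.26 for the combination over BTYNB in tumor cells, 0.43 for BTYNB over control, 0.31 for anti-PD-1 over control, 0.13 for the combination over anti-PD-1 and 0.011 for the combination over BTYNB in myeloid cells, -0.18 for the combination over BTYNB in cDC and -0.68 for the combination over BTYNB in B cells, with turned directions of -0.069 for myeloid H2-DMa in BTYNB over control and 0.056 for myeloid H2-Aa in the combination over BTYNB. The Upk3b state stood at 0.35 in control, 0.38 with BTYNB, 0.96 with anti-PD-1 and 0.21 in the combination, with H2-DMb2 at -0.022 with BTYNB and Ciita at -0.079 with BTYNB, both turned, and the Cd24a state at -0.56 in control and -2.35 with anti-PD-1. Strict gates gave 0.30 for BTYNB over control, 0.68 for anti-PD-1 over control, -0.11 for the combination over anti-PD-1 and 0.26 for the combination over BTYNB in tumor cells, 0.56 for BTYNB over control, 0.38 for anti-PD-1 over control, 0.083 for the combination over anti-PD-1 and -0.099 for the combination over BTYNB in myeloid cells and -0.23 for the combination over BTYNB in cDC, 0.33 in control, 0.65 with BTYNB and 0.47 in the combination for the Upk3b state, and -0.49 in control, -0.11 with BTYNB, -2.29 with anti-PD-1 and -0.40 in the combination for the Cd24a state. The strict B gate held too few combination cells for a value. Median-of-ratios scaling gave 0.33 for BTYNB over control, 0.72 for anti-PD-1 over control and -0.18 for the combination over anti-PD-1 in tumor cells, 0.71 for BTYNB over control, 0.39 for anti-PD-1 over control and 0.19 for the combination over anti-PD-1 in myeloid cells and -0.70 for the combination over BTYNB in B cells, and turned tumor Cd74 to -0.028 for the combination over anti-PD-1. Tumor cells in neither state gave 0.091 for BTYNB over control, 0.82 for anti-PD-1 over control, -0.28 for the combination over anti-PD-1 and 0.45 for the combination over BTYNB. Turned there were H2-Ab1 (-0.10) and Ciita (-0.0093) for BTYNB over control, Cd74 (-0.050) and H2-DMb1 (-0.068) for the combination over anti-PD-1, and Cd74 (0.12) for the combination over BTYNB. With a common floor of 5115 UMIs per cell, tumor cells gave 0.57 for anti-PD-1 over control and 0.0057 for the combination over anti-PD-1; myeloid cells 0.86 for BTYNB over control, 0.17 for anti-PD-1 over control, 0.42 for the combination over anti-PD-1 and -0.27 for the combination over BTYNB, with Cd74 at -0.15 for anti-PD-1 over control and H2-Aa at 0.20 for the combination over anti-PD-1, both turned; cDC -0.18 for the combination over BTYNB; the Upk3b state 0.64 with BTYNB and 1.15 with anti-PD-1; and the Cd24a state -2.21 with anti-PD-1. In the B gate, -0.55 for the combination over BTYNB with all cells, the floor turned the direction to 0.20 for the 4-gene sum, 0.25 for H2-Aa, 0.28 for H2-Ab1, 0.20 for H2-Eb1, 0.11 for Cd74, 0.44 for H2-DMa, 1.10 for H2-DMb2 and 0.45 for Ciita. Removing tumor-gate cells from the B gate was chosen after the data were seen. Without tumor-gate cells the B value was -0.28 for the combination over BTYNB, and with the floor as well it was 0.078 for the 4-gene sum, 0.14 for H2-Aa, 0.12 for H2-Ab1, 0.090 for H2-Eb1, 0.27 for H2-DMa, 0.99 for H2-DMb2 and 0.39 for Ciita. Myeloid cells outside the cDC gate gave 0.51 for BTYNB over control, 0.025 for the combination over anti-PD-1 and -0.14 for the combination over BTYNB. The share of tumor cells with a UMI of the 3 chains was 96.6% in control, 96.7% with BTYNB, 91.3% with anti-PD-1 and 99.7% in the combination without thinning and 82.7% in control, 86.4% with BTYNB, 79.3% with anti-PD-1 and 92.9% in the combination at 2000 UMIs, with 41.6% and 37.2% of BTYNB T cells. A pseudocount of 10 CPM lowered the genes past 1.5-fold in tumor cells to 197, 415, 444 and 17 in the 4 comparisons, from 865, 1157, 1277 and 80, and the members past it in BTYNB over control from 1 to 0. The common floor moved the sum of B cells in the combination over BTYNB by 0.752 on the log2 scale.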

Other observations

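Myeloid cells outside the cDC gate were split by genes of monocytes and macrophages, a split made after the data were seen. Before this split control held only 281 such cells, and anti-PD-1, with 368, is left out of the values below. Cells with at least 3 UMIs of Ly6c2, a monocyte gene, had a 4-gene sum of 21392 CPM with BTYNB and 20105 in the combination, over 813 and 92 cells. Cells with at least 3 UMIs of Mgl2, a lectin of macrophages and dendritic cells, had a sum of 27269 in control, 36770.5 with BTYNB and 32892 in the combination. Cells with at least 3 UMIs of Retnla, an alternative-activation gene of macrophages, had a sum of 23380.3 in control, 30756 with BTYNB and 28334 in the combination. The Mgl2 and Retnla cells of BTYNB and of the combination lay above the Ly6c2 cells of the same library, and in control both had less than in BTYNB.

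Cells taken as mature dendritic cells differed from cDC in the proportion of the I-A chains. They had a UMI of Ccr7, at least 2 of Fscn1, at most 2 of the keratins and none of Cd3d, Cd3e and Cd3g. B cells were not left out, and other markers of this gate were not checked. H2-Aa was at 5469 CPM and H2-Ab1 at 3423 in the 336 such cells of BTYNB, and at 5662 and 3654 in the 74 of the combination. H2-Ab1 per H2-Aa was thus below 1, as in tumor cells, whereas it was above 1 in cDC of both libraries. In tumor cells Ccr7, the chemokine receptor of migrating dendritic cells, had CPM of 3.001 in control, 5.30 with BTYNB, 42.7 with anti-PD-1 and 6.70 in the combination. In the Cd24a state it was at 9.01 in control, 9.32 with BTYNB, 114 with anti-PD-1 and 11.3 in the combination, and in the other tumor cells at 2.38 in control, 4.24 with BTYNB, 10.3 with anti-PD-1 and 5.60 in the combination, so that it was higher in the Cd24a state in all 4 libraries. The split by the Upk3b state had no such order: Ccr7 was at 3.61 in control, 5.33 with BTYNB, 32.7 with anti-PD-1 and 6.28 in the combination in that state and at 1.72 in control, 5.15 with BTYNB, 60.9 with anti-PD-1 and 9.36 in the combination in the other tumor cells. Fscn1, the other gene that defined mature dendritic cells here, was lower in the Cd24a state in each library, but in control the intervals overlapped. The control value of the state rests on 33 UMIs (3.25 to 6.63 CPM), against 5.61 to 6.81 CPM outside it. In that state Fscn1 was at 4.72 in control, 4.04 with BTYNB, 1.48 with anti-PD-1 and 6.67 in the combination. In the tumor cells outside it Fscn1 was at 6.19 in control, 10.7 with BTYNB, 5.22 with anti-PD-1 and 10.97 in the combination. Ccr7 was chosen after its values were seen.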
